A study of Homo sapiens with 3 samples.

Results

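Counts under the gene names MALAT1, NEAT1, TUG1, OIP5-AS1 and OIP5 were described in the human cell line HEK293, which was made from kidney cells of an embryo with adenovirus DNA. The first 4 are long non-coding RNAs known from many cell types as abundant or mainly nuclear, and OIP5 is the protein-coding neighbour that gives OIP5-AS1 its name. They were chosen by name, 5 of the 26485 gene names in the tables. All 3 libraries (replicates 1, 2 and 3) came from untreated, unmodified HEK293 cells kept in DMEM with 10% fetal calf serum, so they formed 1 group (n = 3) with no contrast between conditions. No label ties the replicates to separate cultures, and the variation given below may be technical. The protocols describe removal of ribosomal RNA from total RNA before a library kit that keeps strand, whereas the sample titles call the libraries mRNA sequencing. These are bulk values, in which fewer cells with an RNA and less RNA per cell cannot be told apart.

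MALAT1 is a long RNA of nuclear speckles, the bodies where splicing factors gather. NEAT1 is the scaffold of paraspeckles, and of its transcripts the short one ends in a poly(A) tail while the long one that builds the body does not. MALAT1 and the long NEAT1 RNA instead get their ends from a cut by RNase P, which releases a small tRNA-like RNA, and the end left behind folds into a triple helix that protects it. OIP5-AS1, also called Cyrano, carries an unusually complete site for the microRNA miR-7, and in mouse brain it leads to the destruction of that microRNA. TUG1 is a long RNA with reported roles in chromatin regulation, and OIP5 encodes Mis18-beta, a subunit of the complex that prepares centromeres for new CENP-A.

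The ends of MALAT1 and of the long NEAT1 transcript are shown because they lack a poly(A) tail. Counts under both names may depend on how RNA was selected, which was not tested. The 100 bases before each RNase P cut, both on the plus strand of GRCh38 (chr11:65506017-65506116 for MALAT1 and chr11:65445441-65445540 for NEAT1), carry in capitals 2 matches each to the U-rich motif TTNCTTTT and, at the very end, the last bases that both have in common, AAAAAGCAAAA, both searched on the sense strand.
MALAT1 end: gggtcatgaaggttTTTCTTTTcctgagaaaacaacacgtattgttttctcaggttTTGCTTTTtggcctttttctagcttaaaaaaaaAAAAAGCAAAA
NEAT1 end: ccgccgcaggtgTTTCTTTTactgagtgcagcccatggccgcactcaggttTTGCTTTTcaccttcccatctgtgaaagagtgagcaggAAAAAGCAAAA
Among the last 100 bases of 56074 annotated transcripts of non-coding types, 0.162% had at least 2 matches to the first motif, 0.0428% had the second and 1 had both. That was the long NEAT1 transcript itself, from whose end the second motif was taken, and the annotated MALAT1 transcript runs past the cut. The annotated tRNA-like RNAs begin at the next base, at chr11:65506117-65506173 for MALAT1 and chr11:65445541-65445598 for NEAT1. They share 40 of 59 aligned positions (67.8%), in capitals here.
MALAT1 tRNA-like RNA: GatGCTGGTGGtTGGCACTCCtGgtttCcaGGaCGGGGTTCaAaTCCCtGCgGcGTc
NEAT1 tRNA-like RNA: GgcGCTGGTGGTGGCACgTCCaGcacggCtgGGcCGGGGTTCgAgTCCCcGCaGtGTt

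The miR-7 site sets OIP5-AS1 apart from the other 4 names. The sequence complementary to the seed of miR-7 (bases 2 to 8, in capitals in the first line) occurred 3 times in the 8829 bases of the annotated OIP5-AS1 transcript that holds the site. It did not occur in the annotated transcripts searched for MALAT1 (8708 bases), NEAT1 (22743 bases), TUG1 (7469 bases) and OIP5 (1236 bases). At 1 of the 3 places, on the plus strand at chr15:41300574-41300599, OIP5-AS1 matched 8 bases at the 5′ end and 14 bases at the 3′ end of the microRNA, in capitals in the second line, leaving 4 bases of the RNA and 2 bases of the microRNA unpaired between them.
hsa-miR-7-5p: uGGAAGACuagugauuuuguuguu
OIP5-AS1 site: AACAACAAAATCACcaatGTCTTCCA

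Depth was low and limits every value below. Between 289241 and 483114 counts per library were assigned to gene names, 1.76% to 2.48% of all records. A single count was worth 2.29 to 3.30 CPM (counts per 1000000 of the library size, after TMM scaling), and a name with no count could lie below 3 counts, or 6.86, 6.92 and 9.89 CPM in replicates 1, 2 and 3. Of 10 markers of HEK293, 8 had a count and 6 had one in every library, with a summed level of 244 to 322 CPM. Of 7 markers of blood, endothelium and liver, 1 had a count and none had one in every library, with a summed level of 0 to 11.4 CPM. VIM, 1 of the 10 HEK293 markers, had 26, 10 and 9 counts. VIM-AS1, on the other strand, had 1218, 563 and 745. With the strand of the counts uncertain, these marker counts do not establish the cell type.

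Which strand the counts stand for is uncertain for every name, the markers above included. The kit keeps strand, but the setting of the counting step is not stated, and with the opposite setting reads of an RNA would go to whatever is annotated on the other strand. TSIX, with 73642, 137675 and 49398 counts, shares 7498 exonic bases with XIST on the other strand, and XIST had 118, 154 and 74. GAPDH, a glycolytic gene known as abundant in most cells, had 16, 3 and 4 counts. Of 473 antisense names ending in AS1 that share exonic bases with the gene they are named after, 247 had more counts than that gene, 171 had fewer and 55 had as many. The 55 include pairs with no count under either name. The antisense name with the most counts was UGDH-AS1, with 5742 over the 3 libraries against 8 for UGDH. In the other direction, TTN had 10841 counts against 0 for TTN-AS1. The counts under MALAT1, NEAT1, OIP5-AS1 and OIP5 may therefore be reads of the other strand at these loci, which was not tested, and levels and ranks below are those of counts under a name. For the same reason, a name without counts, such as TUG1, does not show that its RNA was absent.

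MALAT1 (chromosome 11, 65497688 to 65506516, plus strand, a single merged exon of 8829 bases) received 32, 44 and 20 counts in replicates 1, 2 and 3. Its level was 73.1, 101 and 65.9 CPM, or 80.2 ± 18.8 CPM (SD, n = 3). Replicate 2 was the highest library and replicates 1 and 3 lay close together. This coefficient of variation of 23.4% stood beside 18.1% for counting noise alone at this depth.

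NEAT1 (chromosome 11, 65422774 to 65445540, plus strand, a single merged exon of 22767 bases) lies 52148 bases before MALAT1 on the same strand. It received 20, 11 and 6 counts, or 45.7, 25.4 and 19.8 CPM in replicates 1, 2 and 3, a mean of 30.3 ± 13.7 CPM (SD, n = 3). Replicate 1 was the highest library, unlike for MALAT1. The number of MALAT1 counts per NEAT1 count was 1.6, 4 and 3.33 in the same libraries, so MALAT1 had more counts in each library. Exact 95% Poisson intervals of NEAT1, which cover counting error alone, were 27.9 to 70.6 CPM in replicate 1, 12.7 to 45.4 CPM in replicate 2 and 7.26 to 43.0 CPM in replicate 3, and all 3 overlapped. MIR612, a microRNA annotated inside the long NEAT1 transcript, had no count.

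OIP5-AS1 (chromosome 15, 41283990 to 41309737, plus strand, 10 merged exons of 12673 bases) received 18, 22 and 18 counts. Its level was 41.1, 50.7 and 59.3 CPM in replicates 1, 2 and 3, or 50.4 ± 9.09 CPM (SD, n = 3). It varied least of the 4 names with a count: its coefficient of variation was 18.05%, against 22.8% for counting noise alone.

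OIP5 (chromosome 15, 41309268 to 41332621, minus strand, 5 merged exons of 1236 bases) received 8, 7 and 11 counts, or 18.3, 16.1 and 36.3 CPM in replicates 1, 2 and 3, a mean of 23.6 ± 11.05 CPM (SD, n = 3). Replicate 3 was the highest library, with an exact 95% Poisson interval of 18.1 to 64.9 CPM that overlapped those of replicate 1 (7.90 to 36.0 CPM) and replicate 2 (6.49 to 33.2 CPM).

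TUG1 (chromosome 22, 30969245 to 30979395, plus strand, a single merged exon of 10151 bases) received no count in any library. At this depth it was not detectable below the 3-count levels of 6.86 to 9.89 CPM given above. Those levels lie under the mean of each of the other 4 names.

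**Figure D1:**
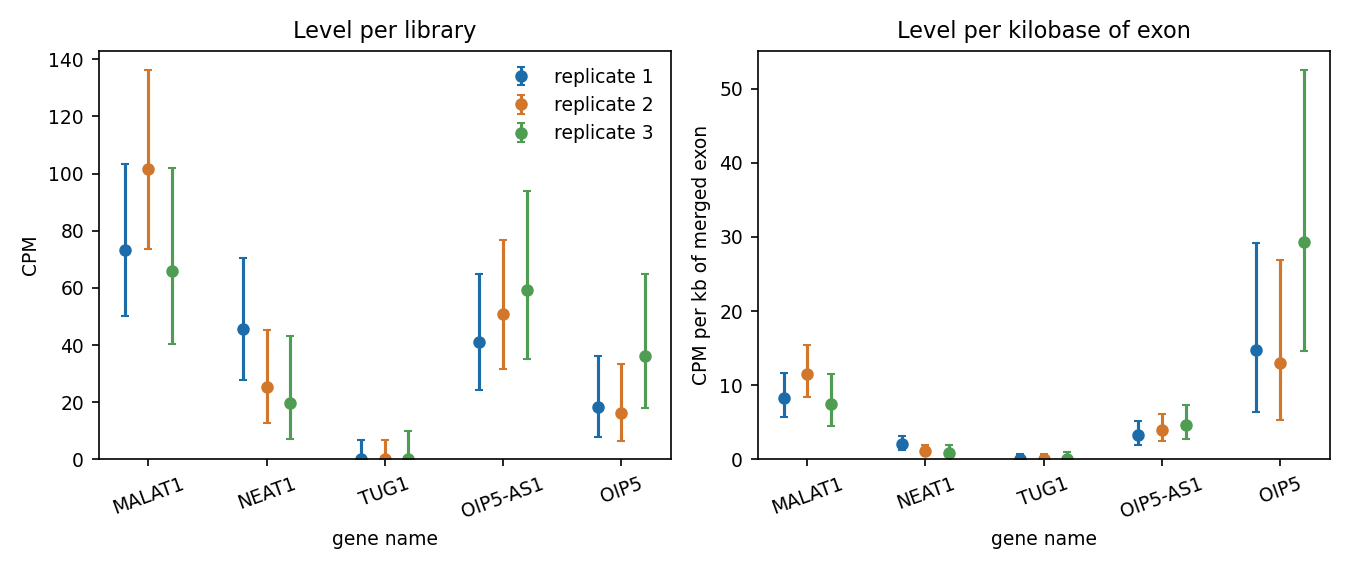
Level of each name in each library, in CPM (left) and in CPM per kilobase of merged exon (right); points are libraries and bars are exact 95% Poisson intervals of the count, with the bar of a count of 0 drawn to 3 counts. MALAT1 lies between 65.9 and 101 CPM, above OIP5-AS1, NEAT1 and OIP5 in every library, while OIP5 is highest in every library per kilobase and TUG1 is at 0 on both scales.

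Per kilobase of merged exon, the scale on which levels of different genes can be set side by side, the order was different. OIP5 came first with 14.8, 13.1 and 29.3 CPM per kb in replicates 1, 2 and 3, MALAT1 followed with 8.29, 11.5 and 7.47 CPM per kb, then OIP5-AS1 with 3.25, 4.002 and 4.68 CPM per kb and NEAT1 with 2.01, 1.11 and 0.869 CPM per kb. This order held in each of the 3 libraries, and the ranges of the 4 names did not overlap. Within a library, counting error was large enough for neighbours in the order to overlap. In replicates 1 and 2 the exact 95% Poisson intervals of OIP5 (6.39 to 29.2 and 5.25 to 26.9 CPM per kb) overlapped those of MALAT1 (5.67 to 11.7 and 8.35 to 15.4 CPM per kb). In replicate 3 the interval of OIP5 (14.6 to 52.5 CPM per kb) lay above that of MALAT1 (4.56 to 11.5 CPM per kb). MALAT1 and OIP5-AS1 had intervals that overlapped in replicate 3 (4.56 to 11.5 and 2.77 to 7.40 CPM per kb) and not in replicates 1 and 2. OIP5-AS1 and NEAT1 overlapped in replicate 1 alone (1.92 to 5.13 and 1.23 to 3.10 CPM per kb). The place of NEAT1 depended on its length: per kilobase of its short transcript of 3441 bases it would have 13.3, 7.37 and 5.75 CPM per kb, a mean of 8.80 ± 3.97 (SD, n = 3) beside 9.08 ± 2.13 for MALAT1, and gene counts cannot be divided between the transcripts.

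Counts under the long non-coding names were not among the highest in these tables, although the RNAs are described as abundant. With the strand of the counts uncertain, these ranks do not show how abundant the RNAs were. Among 2188 names matched to long non-coding genes, 1121 had a count, with a median of 4.18 CPM per kb. MALAT1 ranked 417th by mean CPM per kb, OIP5-AS1 572nd and NEAT1 803rd. By share of counts, in CPM without regard to length, MALAT1 ranked 188th, OIP5-AS1 240th and NEAT1 309th, where the median of names with a count was 8.74 CPM. Of all names with a count, 89.0% had a lower mean CPM than MALAT1, 84.5% than OIP5-AS1, 78.0% than NEAT1 and 74.0% than OIP5. Per kilobase, these shares over 13184 matched names were 79.9% for MALAT1, 67.2% for OIP5-AS1, 43.0% for NEAT1 and 88.3% for OIP5, which moved OIP5 to the front and NEAT1 under the middle.

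**Figure D2:**
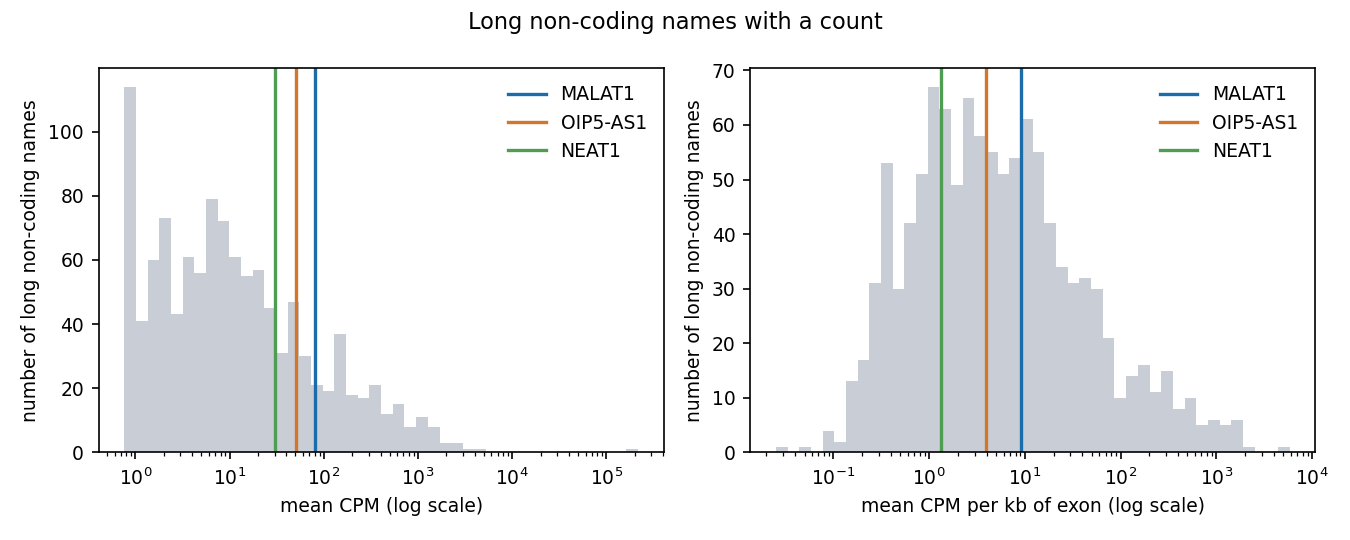
Distribution of mean CPM (left) and mean CPM per kilobase of exon (right), both on log axes, over the 1121 long non-coding names with a count; lines mark MALAT1, OIP5-AS1 and NEAT1. All 3 lie above the median of 8.74 CPM, while OIP5-AS1 and NEAT1 lie below the median of 4.18 CPM per kb.

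Whether a name varied between replicates by more than counting noise was tested with a Poisson fit in edgeR over all 2564 names with at least 10 counts in every library. Of these, 45.8% (1175 names) passed at a Benjamini-Hochberg adjusted p under 0.05. Without replicate 2, 263 of 2784 names (9.45%) passed, against 28.9% without replicate 1 and 34.3% without replicate 3. The 45.8% set beside the gene lists below comes from all libraries, replicate 2 included. MALAT1 and OIP5-AS1 were the 2 of 5 members that could be tested, and neither passed: the adjusted p by edgeR was 0.277 for MALAT1 and 0.624 for OIP5-AS1, with unadjusted p of 0.191 and 0.542. Neither passed with DESeq2 size factors either. At 18 to 44 counts per library, a difference within the counting intervals was not detectable, so these p-values do not show equal levels. NEAT1 and OIP5 fell below the count minimum and TUG1 had no count. With all 14482 names that had a count, of which 20.1% passed, NEAT1 had an adjusted p by edgeR of 0.234 and OIP5 one of 0.319.

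The names whose profiles over the 3 libraries lay closest to MALAT1, by Euclidean distance of log2 CPM centred on each name's mean among 2563 other tested names, were MIA3 (78, 106 and 48 counts, distance 0.016), SYT1 (30, 41 and 19 counts, distance 0.020) and STK17A (498, 694 and 304 counts, distance 0.038). Closest to OIP5-AS1 were GPLD1, with 36, 44 and 36 counts and a distance of 0, RPS6KL1 (68, 83 and 69 counts, distance 0.018) and IQCC (66, 82 and 68 counts, distance 0.031). The distance of 0 arises because GPLD1 and OIP5-AS1 have counts in the same proportions. These distances rest on 3 libraries. MALAT1 and OIP5-AS1 did not pass the test for variation above, and whether their closest profiles go beyond counting noise was not tested.

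OIP5-AS1 and OIP5 run towards each other and overlap at their ends. In GENCODE release 29 the last 470 bases of OIP5-AS1 (chr15:41309268-41309737) lie over the final exon of OIP5, which is 38.0% of the exon length of OIP5 and 3.71% of that of OIP5-AS1. In RefSeq (GRCh38.p14) the OIP5-AS1 gene reaches further, to 41313338, so that the gene bodies share 4066 bases. Of the counts under both names, OIP5-AS1 took 18 of 26 in replicate 1, 22 of 29 in replicate 2 and 18 of 29 in replicate 3. Its share was 69.2%, 75.9% and 62.1%, or 69.1% ± 6.90 (SD, n = 3), with exact Clopper-Pearson 95% intervals of 48.2% to 85.7%, 56.5% to 89.7% and 42.3% to 79.3%. The 3 intervals overlapped, and OIP5-AS1 had the larger share in every library. Per kilobase of exon the order was the other way, with 3.98 ± 0.718 CPM per kb for OIP5-AS1 and 19.1 ± 8.94 CPM per kb for OIP5 (SD, n = 3). Because the strand that was counted is uncertain, inside the overlap and outside it, the share describes counts under these names and not the amounts of the RNAs.

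OIP5 starts 73 bases from NUSAP1, which encodes a spindle protein and is read in the other direction. NUSAP1 had 4, 4 and 9 counts, so replicate 3 was the highest library for NUSAP1 as for OIP5 (8, 7 and 11 counts). Both names fell below the count minimum, and the intervals of OIP5 overlapped between replicates. Whether the shared order goes beyond counting noise was not tested. The distance of 73 bases is between the starts in GENCODE release 29. The promoter window of OIP5 is shown because it overlaps that of NUSAP1 (chr15:41332631-41332930, plus strand) in RefSeq (GRCh38.p14, minus strand, chr15:41332542-41332841), where NUSAP1 starts further away, at 41332881. The motif CCAAT, searched on both strands (CCAAT or ATTGG, in capitals), occurred 3 times in it.
OIP5 promoter: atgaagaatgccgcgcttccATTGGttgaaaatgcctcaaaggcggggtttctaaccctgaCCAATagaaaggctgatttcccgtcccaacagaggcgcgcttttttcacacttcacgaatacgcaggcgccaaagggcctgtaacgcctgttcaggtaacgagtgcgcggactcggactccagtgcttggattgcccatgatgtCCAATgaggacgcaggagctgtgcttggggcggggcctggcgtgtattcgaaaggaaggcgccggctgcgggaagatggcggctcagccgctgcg
Of 35116 RefSeq promoter windows of the same length, 34.6% held the motif at least once and 3.26% at least 3 times. It occurred 2 times in the windows of OIP5-AS1 and TUG1 and not in either window of MALAT1. CHP1, a calcineurin-like protein gene that ends 2100 bases before OIP5-AS1 on the same strand, had 16, 24 and 15 counts.

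TUG1 was empty, and the nearest names on each side had few counts. MORC2, a chromatin-silencing ATPase gene read in the other direction from a start 947 bases away, had 0, 1 and 0 counts, and SMTN, the smooth muscle protein gene 84710 bases further on, had 1, 2 and 1 counts. MORC2-AS1, which shares 1616 exonic bases with MORC2 on the opposite strand and was singled out after its values were seen, had 28, 45 and 19 counts, or 76.8 ± 23.3 CPM (SD, n = 3). Annotated exons of 2 unnamed long non-coding genes lie over 810 bases of TUG1 on the opposite strand. Neither matched a counted gene name, so they have no values here. Of long non-coding names with an opposite-strand exon, 69.1% of 852 had a count in some library, against 39.8% of 1336 without one, so TUG1 belonged to the class more often counted. In MALAT1 such exons, as annotated in GENCODE, covered 396 bases (4.49% of its length) and in NEAT1 none. RefSeq also annotates TALAM1, an antisense RNA, opposite MALAT1, at 65499312 to 65507432 on chromosome 11. That span lies over most of the MALAT1 gene (65497738 to 65506516 in RefSeq) and is not part of the 4.49%.

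FRMD8, which encodes a cofactor of iRhom proteins and ends 9249 bases before NEAT1, had 7, 7 and 15 counts.

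**Figure D3:**
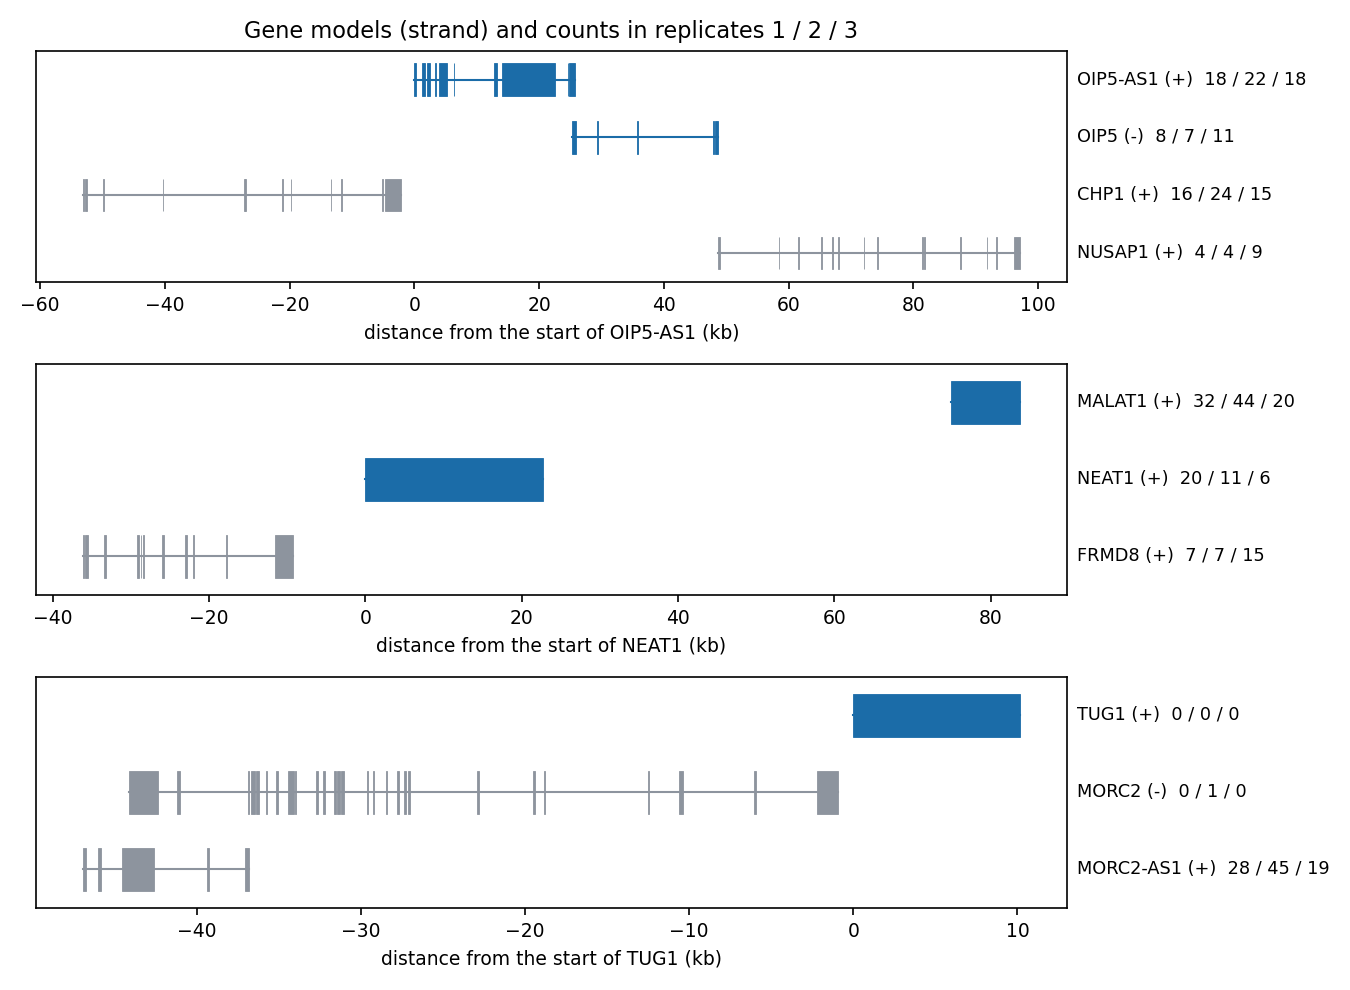
Gene models on GRCh38 (boxes, merged exons; lines, gene bodies; members in blue) at the 3 loci, in kilobases from the start of OIP5-AS1, NEAT1 or TUG1, with strand and counts in replicates 1, 2 and 3 at the right. OIP5-AS1 and OIP5 meet at their ends, and TUG1 with 0 counts faces MORC2 with 0, 1 and 0.

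CDR1 stood out among the genes linked to OIP5-AS1. CDR1 is the protein-coding name opposite the transcript from which the circular RNA CDR1as, a carrier of many miR-7 sites, is made; in mouse brain OIP5-AS1 protects that circular RNA by lowering miR-7. CDR1 received 871, 708 and 538 counts, or 1799 ± 181 CPM (SD, n = 3), and varied between replicates beyond counting noise (edgeR, adjusted p = 0.00159), with replicate 1 the highest library. All 789 bases of its exon (chrX:140783578-140784366) lie over exons of LINC00632 on the other strand, which had 6, 2 and 1 counts. An annotated LINC00632 transcript of 1878 bases held 67 matches to the miR-7 seed, or 35.7 per kb, against 0.340 per kb in the OIP5-AS1 transcript. The circular RNA itself has no value here, and which strand the CDR1 reads came from was not tested. MIR7-1, MIR7-2, MIR7-3 and MIR7-3HG, the precursors of miR-7 and the host of the last, had no count. Of the 18 genes on this list of partners of OIP5-AS1 and TUG1, 11 had a count and CDR1 was the only 1 that could be tested, where 45.8% of all tested names passed. SPEN had 7, 10 and 6 counts and JARID2 had 5, 15 and 3, whereas ELAVL1, the RNA-binding protein HuR, had 0, 1 and 0, the TUG1-linked Polycomb gene EZH2 had 0, 3 and 1, and SUZ12 and GAK had none.

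**Figure D4:**
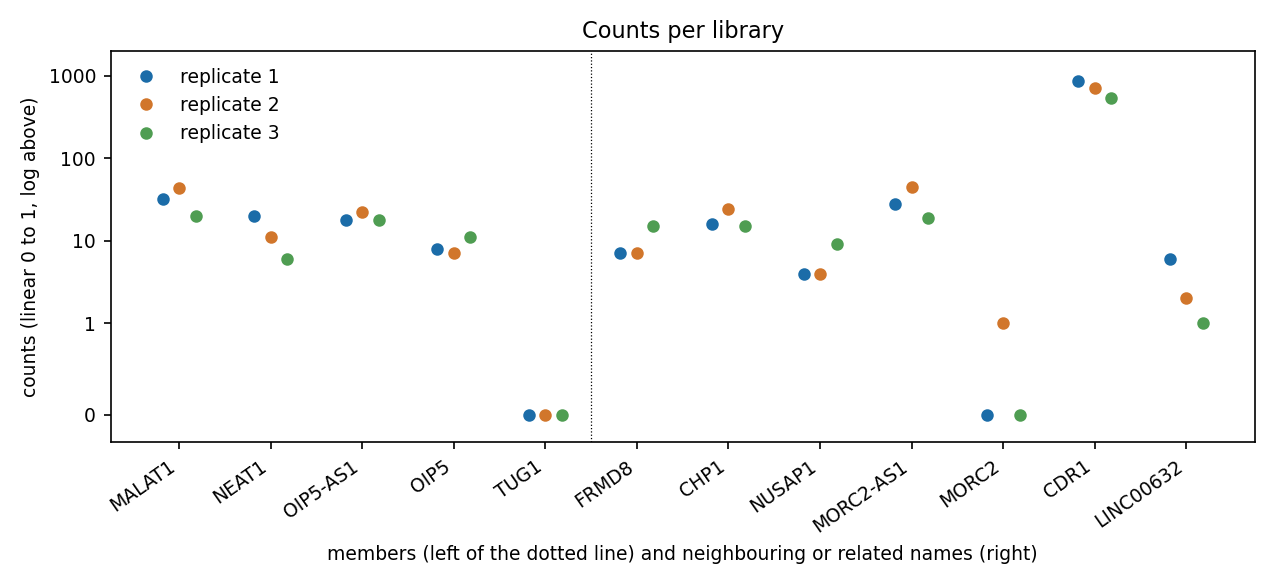
Counts in each library for the 5 members (left of the dotted line) and for neighbouring or related names (right), on an axis that is linear from 0 to 1 and logarithmic above. The members lie between 0 and 44 counts, CDR1 between 538 and 871, and LINC00632 on its other strand between 1 and 6.

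Among genes with a count, the median level was 28.4 CPM for speckles, where MALAT1 lies, and 9.33 CPM for paraspeckles, where NEAT1 lies. Over all names with a count it was 7.89 CPM. These medians take no account of exon length or of opposite-strand exons. Of the names below, ACIN1, SRSF2, SRSF1, SON, CIRBP, WTAP and RBM4B share exonic bases with the opposite strand. SRSF10, SFPQ, NONO and RBM14 share none. Of 29 nuclear speckle genes, 26 had a count, 10 could be tested and 2 of these passed in edgeR, ACIN1 (126, 145 and 127 counts, adjusted p = 0.0294) and SRSF2 (29, 24 and 37 counts, adjusted p = 0.0158), both highest in replicate 3. SRSF1 had 49, 37 and 27 counts and SON, a core scaffold of speckles, had 43, 47 and 21. Of 39 paraspeckle genes in the tables, 35 had a count, 8 could be tested and 3 passed. CIRBP, a cold-inducible RNA-binding protein, had 193, 104 and 108 counts and led in replicate 1 (edgeR, adjusted p = 1.38e-05), RBM4B led in replicate 2 with 26, 48 and 19 (edgeR, adjusted p = 0.0366), and SRSF10 had 34, 15 and 29 (edgeR, adjusted p = 0.00699) and was highest in replicate 3 by CPM. Another leading name, WTAP of the RNA methylation complex, had 56, 62 and 36 counts and did not pass. Among core proteins without which paraspeckles do not form, SFPQ had 25, 11 and 14 counts, NONO had 5, 5 and 1, and RBM14 had none. These shares called (2 of 10 and 3 of 8) stand beside 45.8% of all tested names.

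Of 17 genes for the end processing, modification or stability of MALAT1, 15 had a count, 5 could be tested and 2 passed in edgeR, beside 45.8% of all tested names. RPPH1, the RNA of RNase P, had 156, 38 and 92 counts, or 249 ± 142 CPM (SD, n = 3). It was highest in replicate 1 and lowest in replicate 2 (edgeR, adjusted p = 8.20e-17). MALAT1 was highest in replicate 2 but did not pass (edgeR, adjusted p = 0.277). TRNT1, which adds CCA to tRNA ends, had 29, 44 and 10 counts (edgeR, adjusted p = 0.00538). RPP38, a protein of RNase P, had 35, 40 and 24 counts and the methyltransferase gene METTL3 had 26, 28 and 25, and neither passed. METTL16, which binds the triple helix, had 5, 3 and 6 counts and ELAC2, the nuclease that trims the tRNA-like RNA, had 6, 1 and 1.

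Of the 10 centromere licensing genes in the tables, OIP5 included, 9 had a count, 4 could be tested and 1 passed in edgeR, beside 45.8% of all tested names. It was CENPN (329, 154 and 211 counts, adjusted p = 1.57e-14), whose exons share 813 bases with opposite-strand exons. NPM1, a histone chaperone, had 84, 119 and 72 counts and RBBP4, a histone-binding subunit, had 63, 68 and 34. MIS18A, which pairs with OIP5 in the Mis18 complex, had 0, 3 and 2 counts. HJURP, the CENP-A chaperone, had 1, 1 and 0 counts and CENPA had none.

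Other long non-coding RNAs spanned the whole range. Of 32 in the tables, 26 had a count, 5 could be tested and 3 passed in edgeR, beside 45.8% of all tested names: TSIX, KCNQ1OT1 (1140, 1508 and 598 counts, adjusted p = 3.30e-32) and DLEU2 (177, 98 and 112 counts, adjusted p = 3.77e-05). TSIX, given above with its partner XIST, held the most counts of the list. The median of the members of this list with a count was 13.3 CPM, against 7.89 CPM over all names with a count. MALAT1, NEAT1 and OIP5-AS1 lay above both in CPM, which takes no account of length. Per kilobase of exon, the median of all long non-coding names with a count was 4.18 CPM per kb. MALAT1 lay above it with 9.08 CPM per kb, and OIP5-AS1 (3.98) and NEAT1 (1.33) lay below. GAS5, a snoRNA host with a poly(A) tail, had 11, 2 and 7 counts. GAS5-AS1, which shares 42 exonic bases with it on the other strand, had 439, 500 and 415. H19, HOTTIP and SNHG6 had none, like TUG1.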

How the data were processed

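The deposited tables hold raw counts per gene symbol for 3 HEK293 libraries. Per the submitters' processing notes, the tools were Trimmomatic, TopHat2 and HTSeq 0.11.2 and the build was hg38; neither annotation nor strand option is stated there. The 5 summary lines of each table entered neither library sizes nor tests: 91.2% of records were in no feature, 6.77% were not unique.

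CPM values used TMM effective library sizes (edgeR 4.0.16, R 4.3.3). Names reaching 10 counts in each library were fitted in edgeR as Poisson (dispersion 0, intercept alone); deviances were compared with a chi-square distribution and adjusted by Benjamini and Hochberg's method over all of them. This stands in for a quasi-likelihood contrast, which 1 condition does not allow. The fit was tested on simulated data.

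Antisense names were set beside the genes they are named after once the counts had been seen. Exon lengths and overlaps came from GENCODE release 29 (GRCh38), a stand-in for the annotation used to count, where 23900 of 26485 names (90.2%) matched by name. Promoters and the microRNA are from RefSeq (GRCh38.p14), other sequences from GENCODE. Biopython 1.88 aligned the tRNA-like RNAs. The text names the members, the genes overlapping or next to them, the leading genes of each list with those that passed, and the 3 closest profiles; further list members were named after their values were seen, and a few genes are not reported here. Members and lists were chosen with earlier results of these data known.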

Additional observations from a re-analysis of the deposited data

Results flagged for a closer look

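Records in no annotated feature lie outside the gene counts used above and made up 91.2% of all records as a mean of the 3 libraries, with a range of 90.6% to 91.5%. What part of them came from the loci of the 5 names was not tested.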

How the results depend on the processing

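MALAT1 and OIP5-AS1 did not pass the test under any of the 8 alternatives run for it (DESeq2 1.42.0 size factors, total counts, 2 looser count filters, a Pearson statistic, and each replicate left out), with an adjusted p of 0.190 to 0.868 for MALAT1 and 0.528 to 0.756 for OIP5-AS1. The number of names passing was 1175 of 2564, and 2914 of 14482 with any count and 2734 of 7148 with a sum of at least 10 counts. When replicates were left out in turn, it was 786 of 2723 without replicate 1, 263 of 2784 without replicate 2 and 1093 of 3186 without replicate 3. The share of OIP5-AS1 was 65.7% to 72.6% when replicates were left out. The mean CPM without each replicate in turn was 69.5 to 87.3 for MALAT1, 22.6 to 35.5 for NEAT1, 45.9 to 55.0 for OIP5-AS1 and 17.2 to 27.3 for OIP5. Leaving TSIX out of the denominator raised MALAT1 to 102 CPM and OIP5-AS1 to 64.0 CPM by construction, and with all records as the denominator MALAT1 had 1.63 CPM and OIP5-AS1 1.006 CPM. The length used for NEAT1, added after seeing the data, gave 8.80 in place of 1.33 CPM per kb. No paired analysis was possible because the 3 libraries form a single group. Depth limits all of this: no member had more than 44 counts in a library.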
